A study of Mus musculus with 3 samples.

Results

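Cells sorted for a Cntn2-eGFP reporter were compared with cells sorted for a Myh6-mCherry reporter, gene by gene, over families that lie outside the heart muscle, conduction and epicardial genes. The comparison took every gene that the table gives as protein-coding and whose normalised read count was 20 or more in the higher of the 2 libraries. This left 15467 of the 22740 protein-coding genes, out of 39179 genes of all kinds, while 7273 lay below that minimum. For each gene the log2 ratio of (GFP value + 1) to (MHC value + 1) was computed, which understates the differences of low genes. At the edge of the minimum, Eps8l1 entered with 20.1 in GFP and 12.2 in MHC, and Gm3944 stayed out with 11.9 and 19.2.

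All cells came from 1 mouse embryonic stem cell line that carried an eGFP reporter of Contactin2 (Cntn2, an immunoglobulin-type adhesion protein used as a mark of cardiac Purkinje cells) and a lentivirus bringing mCherry driven by the Myh6 promoter (αMHC in the labels, the gene of a cardiac myosin). The reporters mark cells by promoter activity in a single line, so they say nothing of other lines. Every population, including the one negative for both reporters, had received sodium nitroprusside, a donor of nitric oxide, on day 4 of differentiation, and no untreated cells were compared here. On day 25 the cells were sorted into GFP (eGFP-positive with dim mCherry), MHC (mCherry-positive) and NEG (negative for both). Each population was 1 RNA-seq library, so the differences below lack any replicate check, no test was made and no p-value is given. Fewer cells of a type and less RNA per cell cannot be told apart in such sorted bulk samples.

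Read totals were 52109065 (GFP), 52826956 (MHC) and 47289405 (NEG), recovered from the deposited values and summed over genes. Each reporter gene was highest in the library sorted for it. Cntn2 had 10045 (GFP), 228 (MHC) and 204 (NEG), and Myh6 4694 (GFP), 186924 (MHC) and 3843 (NEG). Myh6 in GFP, the population with dim mCherry, was thus close to its value in NEG. Of 12 heart muscle markers, 11 were at least 2-fold lower in GFP, with summed values of 16564 (GFP), 330150.0 (MHC) and 11119 (NEG). The 12 mesothelial and epicardial markers were all at least 2-fold higher in GFP, with summed values of 185640.0, 7546 and 7829.6. Bone and cartilage markers were lower in GFP for 11 of 12, with sums of 11484 (GFP), 470480.0 (MHC) and 1465600.0 (NEG). The MHC library thus carried skeletal transcripts beside heart muscle ones. The skeletal sum was lower in MHC than in NEG, where Ibsp (608631) and Col2a1 (574523) made most of it. Mepe (1198 in MHC against 278 in NEG) and Dmp1 (929 in MHC against 706 in NEG) were higher in MHC. The other bone and cartilage markers were higher in NEG. Values of NEG are printed beside those of the comparison for most genes.

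As background, the families described below do different work. Collagens, small leucine-rich proteoglycans and mineral-binding glycoproteins form the matrix of cartilage and bone. Keratins, claudins and polarity proteins belong to sheet-forming cells. Morphogens of the BMP, Wnt and FGF families act between cells through surface receptors, and their secreted antagonists limit them. Hypoxia-inducible factors raise glycolytic enzymes, and interferons raise antiviral and antigen-presenting genes.

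Over the 15467 genes, 2513 (16.2%) were at least 2-fold higher in GFP and 2511 (16.2%) at least 2-fold lower, 32.5% in all, while 10443 (67.5%) lay within 2-fold. The median log2 ratio was 0.06. The extremes were more numerous below than above, with 159 genes at least 16-fold higher and 291 at least 16-fold lower. Among the called genes, 476 of the higher and 691 of the lower had a value under 20 in the other library and so entered through 1 library. Genes that enter in this way tend to differ by construction. These counts form the background against which each family is read below, where "higher" and "lower" mean at least 2-fold on the log2(value + 1) scale. Gene families are described by counts and medians. Values are normalised read counts of the named library. A fold is the plain ratio of the values, and the range in brackets after a fold is its 95% interval, which covers counting error only.

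**Figure D1:**
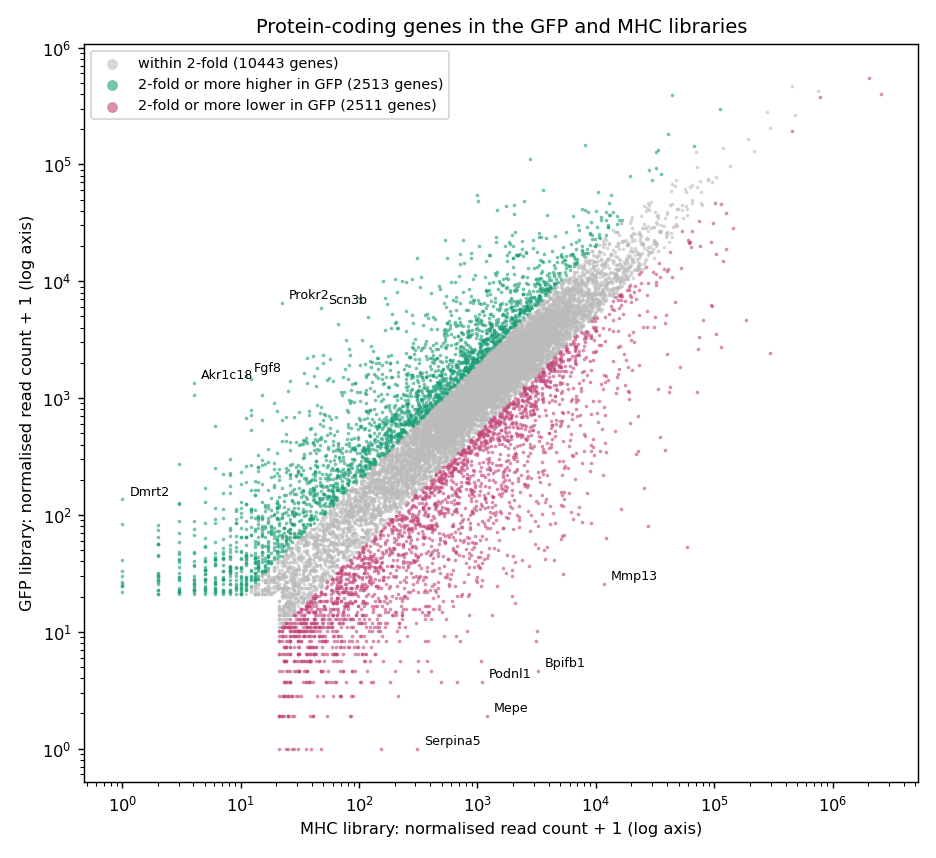
Normalised read counts (plus 1, log axes) of the 15467 protein-coding genes in the MHC library (horizontal) and the GFP library (vertical), 1 point per gene, coloured by the 2-fold rule. The 2513 higher and 2511 lower genes lie on either side of a band of 10443 genes, and beyond 16-fold there are 159 higher and 291 lower genes.

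Several of the largest ratios belonged to genes with little signal in MHC and NEG. The neuropeptide Y receptor gene Npy1r (ENSMUSG00000036437, chr8:66697422-66706798, mm10) had 1055 (GFP), 14.2 (MHC) and 37.3 (NEG). It was 74.4-fold (44.2 to 136) higher in GFP. Lrp2, the gene of the endocytic receptor megalin, had 10121 (GFP), 157 (MHC) and 168 (NEG). It was 64.5-fold (55 to 76) higher in GFP, and MHC and NEG were close to each other. Pkhd1l1, the gene of another large surface protein, was 66.1-fold higher, Vat1l 65-fold and the brain-type sulphotransferase gene Sult4a1 70.9-fold. At the lower end, Rbp4, which encodes the retinol carrier of plasma, had 30.2 (GFP), 5260.0 (MHC) and 2408 (NEG). Fmo1, a flavin monooxygenase gene (ENSMUSG00000040181, chr1:162829561-162866548), had 111 (GFP), 16254 (MHC) and 5688 (NEG). These were 174-fold (124 to 254) and 147-fold (123 to 177) lower in GFP. Ace, the angiotensin-converting enzyme gene, was 153-fold lower, and the adhesion receptor gene Gpr116 247-fold. Ace may share reads with a gene that overlaps it, so its values are uncertain.

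The 63 families and pathways examined hold 2988 of the compared genes, 56 of which stand in more than 1 list. Median log2 ratios were 1 or more in 5 lists, −1 or less in 9 and between these in 49. The highest medians belonged to keratins (2.82), antigen presentation (1.47) and tight junctions (1.42). The lowest belonged to bone (−4.36), cartilage (−3.86) and small leucine-rich proteoglycan genes (−2.55).

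**Figure D2:**
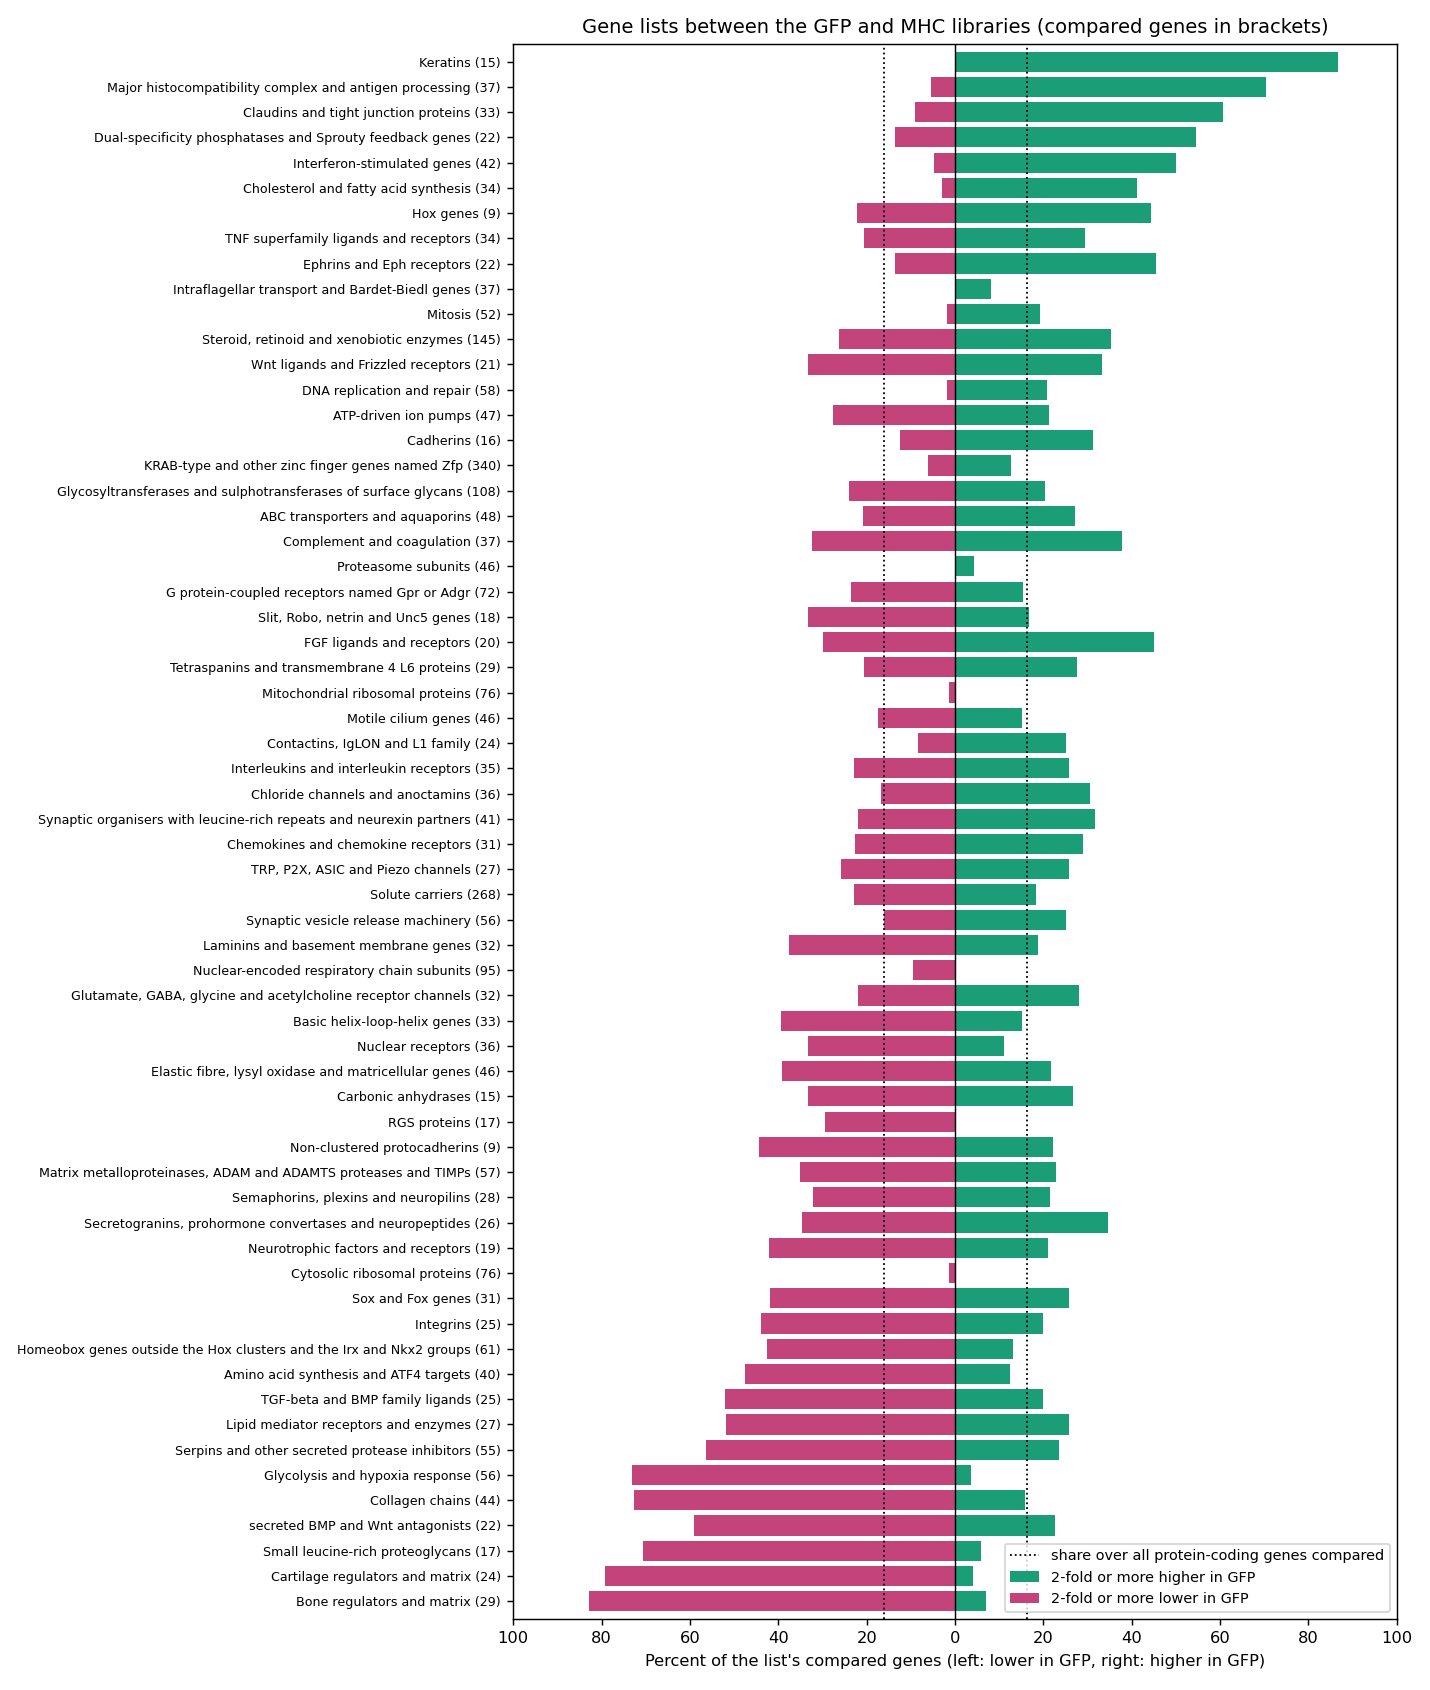
Share of the compared genes of each list reported here (number in brackets) that were at least 2-fold higher (right) or lower (left) in GFP, ordered by median log2 ratio. Dotted lines mark the share over all 15467 genes, 16.2% on each side. Keratins head the plot and bone genes close it.

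Bone genes were lower in GFP for 24 of 29 compared members and higher for 2. Their median log2 ratio was −4.36 against 0.06 over all genes. Of the 29, 6 entered through 1 library, as did 1413 of all 15467 genes. Ibsp, the gene of bone sialoprotein (ENSMUSG00000029306, chr5:104299171-104311469), had 2413 (GFP), 293616 (MHC) and 608631 (NEG). It was 122-fold (117 to 126) lower in GFP. Alpl, the alkaline phosphatase that frees phosphate for mineral, had 355 (GFP), 38345 (MHC) and 64645 (NEG). That made it 108-fold (97.8 to 119.8) lower, and for both genes NEG was the highest library. Mmp13, a collagenase of remodelling bone and growth plate, had 24.7 (GFP), 11652 (MHC) and 2776 (NEG). Here MHC stood above NEG, and GFP was 472-fold (324 to 717) lower than MHC. Spp1, the gene of osteopontin, was 62.8-fold lower, and Mepe had 1 read in GFP against 1183 in MHC. The regulators Sp7 (154 in GFP against 5945 in MHC) and Runx2 (288 in GFP against 4864 in MHC), which direct osteoblast formation, were lower as well. The 2 higher members were Pdpn (podoplanin, 9005 in GFP against 1765 in MHC), also known from mesothelial cells, and the phosphate hormone gene Fgf23 (127 in GFP against 14.2 in MHC). Omd was 111-fold lower. Omd may share reads with a gene that overlaps it, so its values are uncertain.

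Cartilage genes were lower for 19 of 24, with a median of −3.86 and 1 higher member, and 6 of the 24 entered through 1 library. Pth1r, the receptor gene for parathyroid hormone and its relative in growth plate, had 328 (GFP), 22038 (MHC) and 45439 (NEG). It was 67.2-fold (60.5 to 74.7) lower in GFP. Comp, a cartilage oligomeric matrix protein gene, had 2724 (GFP), 114515 (MHC) and 164349.9 (NEG), a 42-fold (40.5 to 43.6) lower level in GFP. Ihh, the hedgehog ligand of growth plate chondrocytes, had 25.6 (GFP), 994 (MHC) and 3217 (NEG), and Runx3, a regulator of their maturation, 19.2 (GFP), 726 (MHC) and 1476 (NEG). In all 4 genes the order was GFP lowest, MHC in the middle and NEG highest. The exception in the list was Prg4, the gene of the joint lubricant lubricin, with 19643 (GFP), 5276 (MHC) and 8155 (NEG). Prg4 may share reads with a gene that overlaps it, so its values are uncertain.

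Collagen chains were lower for 32 of 44 genes and higher for 7 (median −1.94). Apart from Col22a1, which had the lowest ratio, the lowest were those of cartilage and minor fibrillar chains. Col9a1 had 352 (GFP), 22717 (MHC) and 63058 (NEG), and Col11a2 1132 (GFP), 41417 (MHC) and 142417 (NEG). They were 64.6-fold (58.4 to 71.6) and 36.6-fold (34.6 to 38.8) lower in GFP. Col22a1, a chain of tissue junctions, had 90.5 (GFP), 6393 (MHC) and 15616 (NEG). Higher in GFP were Col14a1, a fibril-associated chain, with 17262 (GFP), 874 (MHC) and 1794 (NEG), and Col26a1, with 1129.8 (GFP), 95.2 (MHC) and 280.2 (NEG). Col14a1 was 19.7-fold (18.4 to 21.2) higher. Col6a4, Col6a5 and Col6a6, late-described chains of type VI collagen, were 4.61-fold, 3.09-fold and 5.42-fold higher, while Col6a1 and Col6a3 were 2.25-fold and 4.0-fold lower. So chains of type VI collagen stood on either side. All 44 collagen genes had a value of 20 or more in both libraries.

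Small leucine-rich proteoglycans, which bind collagen fibrils, were lower for 12 of 17. Lum, the gene of lumican, had 3550.2 (GFP), 102856 (MHC) and 51522 (NEG), 29-fold (28.1 to 29.9) lower in GFP. Podnl1 had 3 reads in GFP and 1075 in MHC. Dcn, the gene of decorin, went the other way with 144191 (GFP), 67849 (MHC) and 62072 (NEG), 2.13-fold higher in GFP, and Fmod lay within 2-fold. Aspn was 37.8-fold lower. Without genes that may share reads the median of this list moved from −2.55 to −1.20. Aspn may share reads with a gene that overlaps it, so its values are uncertain.

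Elastic fibre, crosslinking and matricellular genes were mixed, with 10 of 46 higher and 18 lower (median −0.36). Postn, the gene of periostin, had 1238 (GFP), 42621 (MHC) and 36829 (NEG), and Loxl4, a lysyl oxidase gene, 220.3 (GFP), 11589.7 (MHC) and 36349 (NEG). They were 34.4-fold (32.6 to 36.4) and 52.6-fold (46.3 to 60.0) lower in GFP. Ltbp2, which encodes a protein of elastic fibres, had 182624 (GFP), 41023 (MHC) and 17049.7 (NEG), 4.45-fold (4.40 to 4.50) higher. Fbln2 and Efemp1, of the fibulin family, were 5.42-fold and 6.11-fold higher, and Spock1 and Spock2, testican genes, 8.18-fold and 4.71-fold. Fn1, the fibronectin gene and an abundant transcript of both libraries, lay within 2-fold (472978 in GFP against 455161 in MHC).

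Basement membrane genes divided by chain. In all 12 of 32 were lower and 6 higher (median −0.20). Lama2, the laminin chain of muscle, had 65.8 (GFP), 5422 (MHC) and 2397 (NEG), and the linker gene Nid1 1844 (GFP), 18753 (MHC) and 10357 (NEG). GFP was 82.4-fold (65.3 to 105) and 10.2-fold (9.71 to 10.7) below MHC for these. Lamc3, another laminin chain, had 20631 (GFP), 1869.8 (MHC) and 1168 (NEG). Here GFP was 11-fold (10.5 to 11.6) above MHC. Nid2, the second nidogen gene, was 4.06-fold higher where Nid1 was 10.2-fold lower, so the nidogen genes went opposite ways. Col4a1 and Col4a2 were 3.30-fold and 3.09-fold lower. Col4a1 and Col4a2 may share reads with a gene that overlaps them, so their values are uncertain. Integrin genes, whose products bind these chains, were lower for 11 of 25 and higher for 5 (median −0.84). Itga8 had 84.1 (GFP), 4505 (MHC) and 3386 (NEG) and Itga11, a collagen receptor subunit, 121 (GFP), 5073 (MHC) and 5228 (NEG). Itgb4, the laminin receptor subunit of hemidesmosomes, had 1169 (GFP), 114 (MHC) and 188 (NEG) and was 10.2-fold (8.42 to 12.5) higher in GFP.

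Proteases and their inhibitors were more often lower than higher. In the protease and TIMP list 20 of 57 were lower and 13 higher (median −0.43). Mmp2, a gelatinase gene, had 15017 (GFP), 117818 (MHC) and 65027 (NEG), and Adamtsl2 252 (GFP), 5832 (MHC) and 6177 (NEG). Mmp17 had 2233 (GFP), 263 (MHC) and 337 (NEG) and Adamts9, a protease of proteoglycans, 23223 (GFP), 3789 (MHC) and 3926 (NEG). The first pair was 7.85-fold and 23.1-fold lower in GFP and the second 8.48-fold and 6.13-fold higher. The inhibitor gene Timp2 was 2.92-fold higher. Serpins and other secreted inhibitors were lower for 31 of 55 and higher for 13 (median −1.36), and 20 of the 55 entered through 1 library. With a minimum of 5 in place of 20 the serpin median was −0.77. Serpinf1, the gene of a factor that blocks vessel growth, had 276 (GFP), 7693 (MHC) and 8382 (NEG), and Pi15 323 (GFP), 9670.2 (MHC) and 5767 (NEG). They were 27.9-fold (24.8 to 31.4) and 30.0-fold (26.9 to 33.4) lower. Cst3, the cystatin C gene, was 5.14-fold lower. Higher members included Serpinb1a, of the intracellular serpin branch, with 1589 (GFP), 113 (MHC) and 263 (NEG), and the epithelial inhibitor gene Spint1, with 254 (GFP), 13.2 (MHC) and 7.91 (NEG). Serpind1, the gene of heparin cofactor II, was 42.1-fold higher. Serpind1 may share reads with a gene that overlaps it, so its values are uncertain.

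All 12 bone and cartilage markers are themselves members of the bone, cartilage and collagen lists, so their direction repeats those results. Among the smooth muscle and fibroblast markers, Col1a1, Col1a2, Col3a1, Dcn, Postn and Lum also stand in the lists above. Of 12 smooth muscle and fibroblast markers 10 were lower and 2 higher in GFP, with summed values of 1332500.0 (GFP), 5306200.0 (MHC) and 5327400.0 (NEG). The part of such cells in the matrix differences was not tested.

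Glycolysis and hypoxia response genes were lower in GFP for 41 of 56 and higher for 2, with a median of −1.66. Car12, a surface carbonic anhydrase gene (ENSMUSG00000032373, chr9:66713686-66766845), had 85 (GFP), 9123 (MHC) and 11636 (NEG). It was 107-fold (87.5 to 133) lower in GFP. Vegfa, the vascular growth factor gene, had 1738 (GFP), 20279 (MHC) and 13036 (NEG), and Pfkfb3, whose enzyme drives glycolytic flux, 493 (GFP), 6179.7 (MHC) and 3135 (NEG). They were 11.7-fold (11.1 to 12.2) and 12.5-fold (11.5 to 13.7) lower. The abundant glycolytic genes Aldoa and Pkm were 3.23-fold and 2.39-fold lower. Selenbp1 was 19-fold lower, and Stc2, a stanniocalcin gene, 42.9-fold. Its paralogue Stc1 went the other way with 5198 (GFP), 190.4 (MHC) and 469 (NEG), 27.3-fold (23.6 to 31.7) higher in GFP. Aldoc, the brain-type aldolase gene, was 4.87-fold higher, against the 3.23-fold lower level of Aldoa. Car9, often used as a hypoxia mark, lay within 2-fold on the higher side (8503 in GFP against 4485 in MHC), so it did not go with Car12. Car9 may share reads with a gene that overlaps it, so its values are uncertain.

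Promoters of this list were read for the core of the hypoxia response element, spelled ACGTG on either strand, which also lies within the E-box CACGTG. RefSeq windows on GRCm38.p6, from 250 bases before to 50 after the gene start, were matched by symbol for 49 of the 56 genes, with 70 windows. The core was present in 51.4% of these windows and in 50.0% of the 56 windows of the lower members. Of the 14183 windows of all compared genes 24.1% held it, and of all 32851 windows 19.6%. A match is a description of the letters and not a site in use. Among lower members with a value of 100 or more and no shared reads, Selenbp1 and Pfkfb3 had the largest differences with a match in the 250 bases upstream, which are shown with the core in capitals, 5′ to 3′ on the gene's strand. Selenbp1 lies at chr3:94932833-94933082 on the plus strand and Pfkfb3 at chr2:11502091-11502340 on the minus strand. The Vegfa window with a match belongs to a RefSeq start inside the gene and is not shown.
Selenbp1: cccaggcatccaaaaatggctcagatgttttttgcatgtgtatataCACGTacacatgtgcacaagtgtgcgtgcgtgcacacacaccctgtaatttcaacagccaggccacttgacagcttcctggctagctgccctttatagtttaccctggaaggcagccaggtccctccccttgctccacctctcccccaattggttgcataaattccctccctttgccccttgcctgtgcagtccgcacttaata
Pfkfb3: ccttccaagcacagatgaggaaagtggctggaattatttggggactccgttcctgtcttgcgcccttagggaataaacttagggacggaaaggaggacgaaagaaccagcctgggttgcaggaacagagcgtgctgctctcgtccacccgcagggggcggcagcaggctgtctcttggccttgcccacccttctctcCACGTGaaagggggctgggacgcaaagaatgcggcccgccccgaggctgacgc
In Pfkfb3 the capitals form the 6 letters of the E-box, which hold the core once on each strand. In the same kind of windows, the letters TGTGGT, bound by Runx factors, were in 28% of 25 bone and 26.7% of 30 cartilage windows. The share was 31.8% of 22 and 23.8% of 21 windows of their lower members, 12.5% of all compared windows and 16.8% of all 32851.

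Lipid and amino acid synthesis genes went in different directions. Cholesterol and fatty acid synthesis genes were higher in GFP for 14 of 34, 19 lay within 2-fold and 1 was lower (median 0.80). Elovl6, a fatty acid elongase gene, had 2048 (GFP), 168 (MHC) and 314 (NEG), 12.2-fold (10.4 to 14.3) higher. Nsdhl and Fdps, of the sterol pathway, had 2181 (GFP), 452 (MHC) and 631 (NEG) and 3974 (GFP), 995 (MHC) and 1488 (NEG). Sqle, which encodes squalene epoxidase, was 3.13-fold higher. Me1, which supplies NADPH, was the lower member (2021 in GFP against 4615 in MHC). The letters TCACNCCAC, 1 form of the sterol regulatory element, were in 1 of 29 windows of this list (3.45%), in 0 of the 9 windows of its higher members and in 1.23% of all compared windows. Amino acid synthesis and ATF4 target genes were lower for 19 of 40 and higher for 5 (median −0.95). Aldh1l2, a mitochondrial folate enzyme gene, had 580.4 (GFP), 5788 (MHC) and 9379 (NEG), and Trib3 431 (GFP), 3297 (MHC) and 7605 (NEG). They were 9.97-fold (9.18 to 10.8) and 7.66-fold (6.95 to 8.45) lower. Atf4 itself was 2.71-fold lower, and Fgf21, a hormone of fasting and a known ATF4 target, was 3.61-fold higher.

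Enzymes of steroids, retinoids and foreign compounds held large differences on each side, with 51 of 145 higher and 38 lower (median 0.48). Cyp2s1 had 6409 (GFP), 170.2 (MHC) and 204 (NEG) and the carboxylesterase gene Ces2c 193 (GFP), 12.2 (MHC) and 20.3 (NEG). GFP was 37.7-fold (32.3 to 44.2) and 15.9-fold (8.89 to 31.2) above MHC. Aldh1a1, a retinaldehyde dehydrogenase gene, was 3.87-fold higher. Cyp26b1, which degrades retinoic acid, had 8.23 (GFP), 660.4 (MHC) and 464 (NEG), and Cyp1b1 152 (GFP), 8376 (MHC) and 3569.7 (NEG). GFP was 80.3-fold (42 to 176) and 55.2-fold (47.3 to 64.8) below MHC. Aldh1a2, of the same function, was 19.1-fold higher. These genes that form retinoic acid were thus higher and a gene that breaks it down lower in GFP. Lipid mediator genes were lower for 14 of 27 and higher for 7 (median −1.18). The prostaglandin E synthase gene Ptges had 32.9 (GFP), 1965 (MHC) and 595 (NEG), 59.7-fold (43 to 85.5) lower, while the cyclooxygenase genes Ptgs1 and Ptgs2 were 3.66-fold and 3.17-fold higher. Ptgds, the prostaglandin D synthase gene, had 1158 (GFP), 134 (MHC) and 97.1 (NEG). The synthases of prostaglandin E and D therefore stood on opposite sides.

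Genes of sheet-forming cells were higher in GFP. Keratins were higher for 13 of 15, 2 lay within 2-fold and 0 was lower (median 2.82), and 6 of them entered through the GFP library alone. Krt7 had 15730.1 (GFP), 881 (MHC) and 2044 (NEG), 17.9-fold (16.7 to 19.1) higher in GFP. Krt14, a keratin of basal epidermis, had 1549 (GFP), 138 (MHC) and 157 (NEG), 11.2-fold (9.44 to 13.5) higher. Tight junction and polarity genes were higher for 20 of 33 and lower for 3 (median 1.42). Cldn15, a claudin with cation-selective pores, had 7227 (GFP), 165 (MHC) and 167 (NEG). It was 43.8-fold (37.5 to 51.4) higher. Pard6b, part of the apical polarity complex, had 4986 (GFP), 119 (MHC) and 156 (NEG), 42.1-fold (35 to 51) higher. Cxadr, which encodes the junctional coxsackievirus and adenovirus receptor, had 37815 (GFP), 2018 (MHC) and 2402 (NEG). Cldn3 and Cgnl1 were 30.3-fold and 20.1-fold higher. Cldn11, Cldn2 and Cldn1 were the lower members, and Cldn11 lay under the minimum in GFP (2.74 in GFP against 102 in MHC). The 12 mesothelial and epicardial markers move with these lists, 3 of which (Krt8, Krt18 and Krt19) are keratins, and their part was not tested. Of the general epithelial genes Epcam had 25.6 (GFP), 15.2 (MHC) and 14.7 (NEG), near the minimum and within 2-fold, and Cdh1 64 in GFP against 19.2 in MHC.

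**Figure D3:**
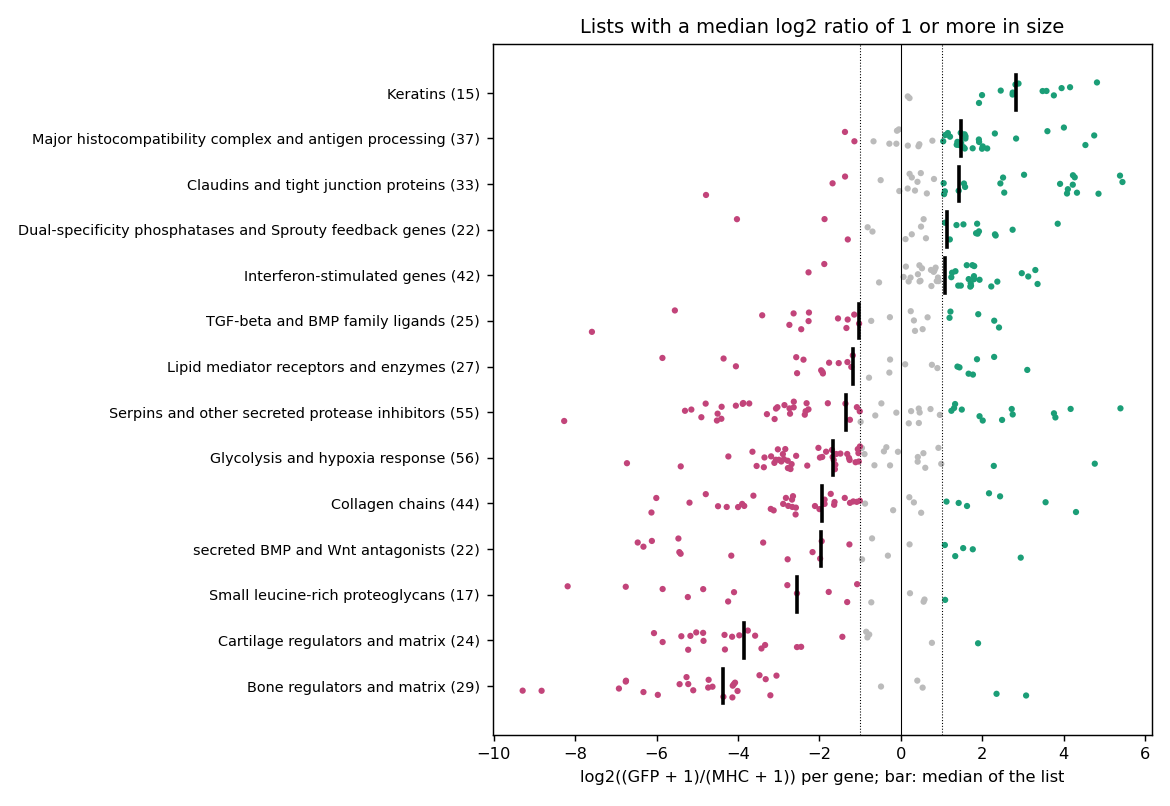
Log2((GFP + 1)/(MHC + 1)) of each compared gene in the 14 lists whose median was at least 1 in size, 1 point per gene, with the list's median as a black bar and dotted lines at 2-fold. Keratins have no lower gene, and bone genes lie below −3 except for 5 of 29.

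Other surface families showed no common direction. Cadherins had 5 of 16 higher and 2 lower, among them Cdh11, a mesenchymal cadherin gene, with 54674 (GFP), 13494 (MHC) and 19831 (NEG), 4.05-fold (3.98 to 4.13) higher in GFP. The list of contactins, IgLON, L1, Cntnap, Cadm and similar adhesion genes other than Cntn2 had 6 of 24 higher and 2 lower. Cadm4 had 9853 (GFP), 647 (MHC) and 681 (NEG) and Alcam 10879 (GFP), 2391 (MHC) and 2499.9 (NEG). They were 15.2-fold (14.1 to 16.5) and 4.55-fold (4.35 to 4.76) higher, while Nrcam was 6.55-fold lower. Tetraspanins had 8 of 29 higher and 6 lower. Tm4sf5 had 574 (GFP), 5.06 (MHC) and 6.78 (NEG) and Cd9 1594 (GFP), 15285 (MHC) and 15678 (NEG), on opposite sides, 113-fold higher and 9.59-fold lower in GFP. Surface glycan enzymes were split, with 22 of 108 higher and 26 lower. Galnt12 (769.6 in GFP against 36.5 in MHC) and Csgalnact1 (7527 in GFP against 546 in MHC) were the highest without shared reads. Galnt3 (44.8 in GFP against 692 in MHC) and B4galnt3 (32.9 in GFP against 623 in MHC) were among the lowest.

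TGF-beta and BMP family ligands were lower in GFP for 13 of 25 and higher for 5 (median −1.03). The list takes in TGF-beta, inhibin and growth differentiation factor genes, and the genes named Bmp stood on both sides. Gdf10 (ENSMUSG00000021943, chr14:33923587-33935280) had 62.2 (GFP), 12165 (MHC) and 9722 (NEG). It was 196-fold (154 to 252) lower in GFP. Bmp8a had 33.8 (GFP), 1633 (MHC) and 3524 (NEG) and Bmp2 161 (GFP), 882 (MHC) and 1305 (NEG), lower by 48.3-fold (34.9 to 68.8) and 5.48-fold (4.66 to 6.49). Bmp6 and Bmp4 were on the higher side, Bmp6 with 1335 (GFP), 250.2 (MHC) and 504 (NEG), and were 5.33-fold and 2.33-fold higher. Secreted antagonists of BMP and Wnt were lower for 13 of 22 and higher for 5 (median −1.96). Wif1, a Wnt inhibitor gene, had 41.1 (GFP), 3720.4 (MHC) and 1872 (NEG), and Frzb, expressed in cartilage, 101 (GFP), 7047 (MHC) and 16974 (NEG). They were 90.4-fold (67.5 to 124) and 70.1-fold (58.1 to 85.4) lower. Sost, which encodes the osteocyte protein sclerostin, and Grem1, a BMP antagonist gene, were 88.8-fold lower and 45.3-fold lower. Sfrp2, a secreted Frizzled-related gene, had 22658 (GFP), 2942 (MHC) and 4566 (NEG) and was 7.70-fold (7.41 to 8.0) higher, and the BMP antagonist gene Nbl1 was 2.89-fold higher.

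Wnt and Frizzled genes were even, with 7 of 21 higher and 7 lower. Wnt5a, a ligand that acts mainly outside beta-catenin, had 37003 (GFP), 3875 (MHC) and 4977 (NEG), 9.55-fold (9.24 to 9.87) higher in GFP. Wnt2b had 1935 (GFP), 100.3 (MHC) and 142 (NEG) and Wnt9a 2249.5 (GFP), 266 (MHC) and 218 (NEG). They were 19.3-fold (15.8 to 23.9) and 8.44-fold (7.43 to 9.63) higher. Wnt11, Wnt4 and the receptor gene Fzd9 were 4.94-fold, 3.04-fold and 23.6-fold lower. FGF genes were higher for 9 of 20 and lower for 6. Fgf12, an intracellular member that binds sodium channels, had 687 (GFP), 23.3 (MHC) and 33.9 (NEG), 29.5-fold (19.5 to 46.8) higher, and Fgf9, a ligand of epithelia and mesothelium, 179 (GFP), 25.3 (MHC) and 27.1 (NEG). Fgf10 and Fgf11 were 5.31-fold and 12.2-fold lower. Among receptors Fgfr3, of cartilage, was 29-fold lower, and Fgfr1 and Fgfr2 lay within 2-fold (16171 in GFP against 15079 in MHC and 74915 in GFP against 87925 in MHC). Dual-specificity phosphatase, Sprouty and similar feedback genes were higher for 12 of 22 and lower for 3 (median 1.14). Many of them limit the MAP kinase pathway, which FGF signals raise. The list also took in the factor genes Etv4 and Etv5 and inhibitors of EGF receptors. Dusp6 had 5189 (GFP), 1032 (MHC) and 652 (NEG) and Dusp4 2172 (GFP), 323 (MHC) and 145 (NEG). The factor gene Etv5, a known FGF target, had 2040.2 (GFP), 410.2 (MHC) and 621 (NEG). GFP was the highest library for all 3, by 5.03-fold (4.70 to 5.38), 6.72-fold (5.98 to 7.58) and 4.97-fold (4.47 to 5.54) over MHC. Errfi1, an inhibitor of EGF receptors, was 16.3-fold lower. Errfi1 and Fgfr2 may share reads with a gene that overlaps them, so their values are uncertain.

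Guidance genes were mixed. Ephrins and Eph receptors were higher for 10 of 22 entries and lower for 3 (median 0.64), with Efna5 standing in 2 entries. Ephb1 had 2216 (GFP), 35.5 (MHC) and 107 (NEG), 62.5-fold (44.8 to 89.9) higher in GFP. Ephb6 was 5.21-fold higher, and Epha8 and Epha7 were 15-fold and 5.91-fold lower. Semaphorins and their receptors had 6 of 28 higher and 9 lower. Sema3c had 15768 (GFP), 553 (MHC) and 674 (NEG) and its class of receptor, Plxna4, 21809.5 (GFP), 1834 (MHC) and 2212 (NEG). They were 28.5-fold (26.2 to 31.1) and 11.9-fold (11.3 to 12.5) higher, whereas the coreceptor gene Nrp1 was 10.1-fold lower. In the Slit, Robo and netrin list 3 of 18 were higher and 6 lower. Ntn4 had 11115 (GFP), 703 (MHC) and 863 (NEG) and Robo1 212 (GFP), 2661 (MHC) and 2513 (NEG), the first 15.8-fold (14.6 to 17.1) higher and the second 12.5-fold (11 to 14.4) lower. Of 19 neurotrophic genes 4 were higher and 8 lower. Bdnf, the brain-derived neurotrophic factor gene, had 1448 (GFP), 249 (MHC) and 156 (NEG), 5.81-fold (5.08 to 6.67) higher. Ntrk2, a receptor gene for it, had 323 (GFP), 6261 (MHC) and 7282 (NEG), 19.4-fold (17.4 to 21.7) lower. Bdnf and Ntrk2 were therefore highest in different libraries, while other receptor genes of this list stood on each side.

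Antigen presentation genes were higher in GFP for 26 of 37 and lower for 2 (median 1.47). Cd74, the invariant chain of class II molecules, had 1899 (GFP), 81 (MHC) and 308 (NEG). It was 23.4-fold (18.7 to 29.7) higher in GFP. The class II gene H2-Aa had 747 (GFP), 45.6 (MHC) and 87 (NEG) and H2-Eb1 429 (GFP), 34.4 (MHC) and 58.7 (NEG). H2-Ab1, the partner chain of H2-Aa, was instead 2.59-fold lower, with 648 in GFP against 1680.4 in MHC. B2m, shared by class I molecules, lay within 2-fold. Interferon-stimulated genes were higher for 21 of 42 and lower for 2 (median 1.08). Gbp2, a guanylate-binding protein gene, had 1473 (GFP), 143 (MHC) and 219 (NEG), and Ifit1, which binds viral RNA, 256 (GFP), 28.4 (MHC) and 61 (NEG). They were 10.3-fold (8.68 to 12.3) and 9.02-fold (6.11 to 13.8) higher. Irf1 was a lower member (1363 in GFP against 5024 in MHC), as was Isg20 (248 in GFP against 1197 in MHC). Blood cell markers move with these lists: 5 of the 7 measured members were higher and 0 lower, with summed values of 10701 (GFP), 2989 (MHC) and 2317 (NEG). Of the defining ones Ptprc was at 10.1 in GFP and 4.05 in MHC and Spi1 at 8.23 in GFP and 4.05 in MHC, both near 0, and Cd14 made most of the GFP sum with 7405 in GFP against 881 in MHC. The part of blood cells in these results was not tested.

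The interferon-stimulated response element, searched on both strands as GAAA, any 2 bases and GAAA, was in 47.2% of 36 windows of 30 matched interferon-stimulated genes. Among the 14 windows of the higher members 71.4% held it, against 3.10% of all compared windows. For antigen presentation genes it was in 13.8% of 29 windows. The 3 higher members with the largest differences and an upstream match are shown with the element in capitals, chosen in the same way. Gbp2 is at chr3:142620413-142620662, Ifit1 at chr19:34640639-34640888 and Ifit3 at chr19:34583279-34583528, all on the plus strand. The capitals read TTTC, 2 bases and TTTC, the complement of the element.
Gbp2: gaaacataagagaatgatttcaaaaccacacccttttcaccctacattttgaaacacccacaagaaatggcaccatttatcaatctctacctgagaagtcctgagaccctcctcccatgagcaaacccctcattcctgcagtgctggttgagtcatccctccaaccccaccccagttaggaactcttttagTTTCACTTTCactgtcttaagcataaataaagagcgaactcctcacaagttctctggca
Ifit1: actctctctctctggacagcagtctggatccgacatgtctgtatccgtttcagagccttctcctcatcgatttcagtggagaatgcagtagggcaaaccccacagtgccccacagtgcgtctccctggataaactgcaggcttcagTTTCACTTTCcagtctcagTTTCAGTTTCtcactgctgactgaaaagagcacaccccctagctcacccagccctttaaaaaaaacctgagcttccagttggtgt
Ifit3: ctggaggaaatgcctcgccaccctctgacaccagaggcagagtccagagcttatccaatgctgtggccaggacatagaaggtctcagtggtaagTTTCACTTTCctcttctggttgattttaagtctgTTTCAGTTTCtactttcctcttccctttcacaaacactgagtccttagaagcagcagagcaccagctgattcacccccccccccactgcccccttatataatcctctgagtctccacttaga
Ifit1 and Ifit3 hold 2 matches each and Gbp2 holds 1. Ifit3 had 505 (GFP), 132 (MHC) and 141 (NEG), 3.84-fold (3.17 to 4.68) higher in GFP.

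**Figure D4:**
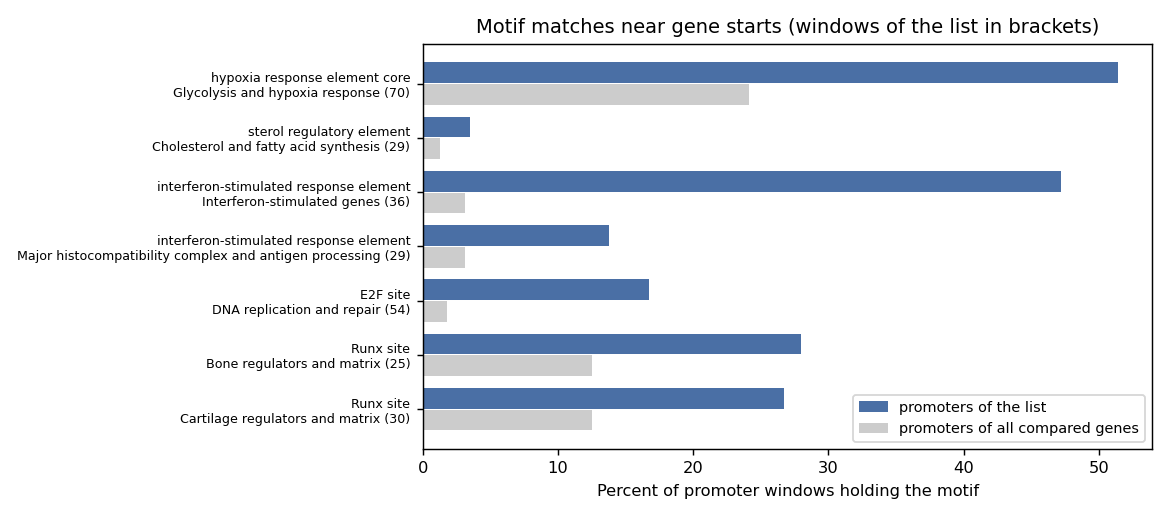
Percent of promoter windows (300 bases) that hold each motif, for the windows of a list (blue, number in brackets) and of all compared genes (grey). The interferon element was in 47.2% against 3.10% and the hypoxia core in 51.4% against 24.1%.

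Of 37 complement and coagulation genes 14 were higher and 12 lower. C3, the central complement protein, had 396084 (GFP), 44076 (MHC) and 36841 (NEG), 8.99-fold (8.90 to 9.08) higher in GFP and the fifth most abundant of the compared genes there. Cfi, a complement protease gene, had 4429 (GFP), 199 (MHC) and 259 (NEG), and Plau, the urokinase gene, 14214 (GFP), 768 (MHC) and 799 (NEG). They were 22.3-fold (19.3 to 25.9) and 18.5-fold (17.2 to 19.9) higher. Masp1, of the lectin pathway, and F2r, the thrombin receptor gene, were 28.5-fold and 11.4-fold lower. Chemokines and receptors had 9 of 31 higher and 7 lower. Cxcl16 and Ccl7 had 5096 (GFP), 359 (MHC) and 306 (NEG) and 2962 (GFP), 285 (MHC) and 223 (NEG). Cxcl12 had 2399 (GFP), 17463 (MHC) and 14374 (NEG) and Cx3cl1 189 (GFP), 3387 (MHC) and 1170.3 (NEG). The first 2 were highest in GFP and the last 2 lowest there. Interleukin genes had 9 of 35 higher and 8 lower, with Il18 (1312 in GFP against 87.1 in MHC) and Il33 (1492 in GFP against 271 in MHC) higher. In the TNF superfamily 10 of 34 were higher and 7 lower. The bone cytokine gene Tnfsf11 (3.66 in GFP against 201 in MHC) and its decoy receptor Tnfrsf11b (21.9 in GFP against 393 in MHC) were both lower.

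Transport families were read as wholes. Solute carriers had 49 of 268 higher and 61 lower (median −0.09), 18.3% and 22.8% against 16.2% over all genes. Slc6a4, the serotonin transporter gene (ENSMUSG00000020838, chr11:76998603-77032340), had 3994 (GFP), 184 (MHC) and 175 (NEG). It was 21.7-fold (18.7 to 25.3) higher in GFP. Slc39a8, a zinc importer gene, had 9131 (GFP), 472 (MHC) and 513 (NEG), and Slc9a3r1, which encodes an apical scaffold and is no transporter despite its symbol, 22745 (GFP), 759 (MHC) and 957 (NEG). Slc13a5, the citrate transporter gene of liver and bone, had 289.8 (GFP), 5239 (MHC) and 21704 (NEG), and Slc7a2, of cationic amino acids, 445 (GFP), 9495 (MHC) and 7165 (NEG). They were 18.1-fold (16.1 to 20.3) and 21.3-fold (19.5 to 23.4) lower. Chloride channels and anoctamins had 11 of 36 higher and 6 lower. Ano5 had 1441 (GFP), 11.1 (MHC) and 5.65 (NEG) and Ano1 48.4 (GFP), 640.2 (MHC) and 2419.7 (NEG), 129-fold higher and 13.2-fold lower in GFP. Aquaporins and ABC transporters had 13 of 48 higher and 10 lower, led among abundant genes by the water channel gene Aqp1 with 23827 (GFP), 1429 (MHC) and 1475 (NEG), 16.7-fold (15.8 to 17.6) higher. Among ion pumps 10 of 47 were higher and 13 lower.

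Receptor channels of synapses had 9 of 32 higher and 7 lower. Grin2a, an NMDA receptor subunit gene, had 424 (GFP), 23.3 (MHC) and 30.5 (NEG), and Chrna7, of the alpha7 acetylcholine receptor, 273 (GFP), 15.2 (MHC) and 14.7 (NEG). These were 18.2-fold (12 to 29) and 18-fold (10.7 to 32.5) higher in GFP. Glrb was 12.7-fold lower. TRP, P2X, ASIC and Piezo channels had 7 of 27 higher and 7 lower. Scnn1a, the epithelial sodium channel chain, had 751 (GFP), 80.0 (MHC) and 117 (NEG), 9.39-fold (7.45 to 12) higher, and Trpv4, known from chondrocytes, 182 (GFP), 2467 (MHC) and 4646 (NEG), 13.6-fold (11.7 to 15.8) lower. Synaptic organisers had 13 of 41 higher and 9 lower, with 0.02 as the median. Nrxn2, a neurexin gene, had 1814 (GFP), 43.6 (MHC) and 49.7 (NEG), and Flrt2 44759 (GFP), 2032 (MHC) and 2231 (NEG). They were 41.6-fold (30.8 to 57.7) and 22-fold (21.1 to 23) higher. Vesicle release genes had 14 of 56 higher and 9 lower, among them Unc13b with 2593 (GFP), 294 (MHC) and 239 (NEG) and Syngr1 with 2196 (GFP), 143 (MHC) and 74.6 (NEG). Of 12 neuron markers 7 reached a value of 20, 2 of them higher and 1 lower, with summed values of 374 (GFP), 465 (MHC) and 738 (NEG). Of 12 glia and neural crest markers 5 reached it, 4 higher and 0 lower. The 12 had summed values of 12304 (GFP), 2058 (MHC) and 2175 (NEG). Mbp made most of each sum with 11557 (GFP), 1787 (MHC) and 1676 (NEG). Foxd3 was at 0 in GFP and MHC. Sox10 and Fabp7 were at 0 in MHC and had only 7 and 12 reads in GFP. The part of such cells in the synaptic gene results was not tested.

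Hormone precursors and dense-core vesicle genes divided evenly, 9 higher and 9 lower of 26. Scg2, the gene of secretogranin II, had 16631 (GFP), 1779.7 (MHC) and 3257 (NEG), 9.35-fold (8.90 to 9.82) higher in GFP. Crh, the corticotropin-releasing hormone gene, had 224 (GFP), 6.08 (MHC) and 20.3 (NEG), 36.8-fold higher on 6 reads in MHC. Penk, the enkephalin precursor gene (ENSMUSG00000045573, chr4:4133531-4138819), had 461 (GFP), 35154 (MHC) and 6511 (NEG). It was 76.3-fold (69.9 to 83.5) lower, with MHC the highest library. The angiotensinogen gene was at least 2-fold lower too. G protein-coupled receptors named Gpr or Adgr had 11 of 72 higher and 17 lower. Lgr5, a receptor gene for R-spondins, had 28.3 (GFP), 369 (MHC) and 468 (NEG), 13-fold (9.01 to 19.4) lower. RGS genes had 0 of 17 higher and 5 lower, the lowest being Rgs5, a pericyte gene, with 5.48 in GFP against 135 in MHC.

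Transcription factor families outside the heart lists differed in direction. Homeobox genes beyond the Hox, Irx and Nkx2 groups had 26 of 61 lower and 8 higher. The median was −0.88 and ranged from −0.93 to −0.13 under other settings. Dlx5, a regulator of skeletal cells, had 15.5 (GFP), 617 (MHC) and 753 (NEG). It was 39.7-fold (24.6 to 68.6) lower. Pou3f1 and Lhx1 were on the higher side with 409 (GFP), 81 (MHC) and 28.2 (NEG) and 128 (GFP), 29.4 (MHC) and 16.9 (NEG). Sox and Fox genes had 13 of 31 lower and 8 higher. Foxd1 and Foxc1 had 4.57 (GFP), 313 (MHC) and 570.5 (NEG) and 51.2 (GFP), 1239.8 (MHC) and 2079 (NEG). Foxo4 had 24770.2 (GFP), 1956 (MHC) and 3408 (NEG) and Sox12 3047 (GFP), 529 (MHC) and 826 (NEG). So forkhead genes stood on each side, Foxc1 24.2-fold lower and Foxo4 12.7-fold higher. The list of basic helix-loop-helix genes, which by symbol also took in Tcf7, Tcf19, Tcf20 and Tcf25 of other families, had 13 of 33 lower and 5 higher, with Bhlhe40, a clock and hypoxia gene, 8.40-fold lower. Nuclear receptors had 12 of 36 lower and 4 higher. Pparg, the regulator of fat cells, had 11.9 (GFP), 359 (MHC) and 160.4 (NEG), and Vdr, the vitamin D receptor gene, 590.5 (GFP), 2393 (MHC) and 2257 (NEG). Of Hox genes 9 of 38 reached the minimum, 4 higher and 2 lower. However, 7 of the 9 may share reads with overlapping genes, and the median ranged from −0.59 to 3.11 under other settings. The highest was Hoxc13 with 297 (GFP), 7.09 (MHC) and 4.52 (NEG), 41.9-fold (20.1 to 105) higher.

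Zinc finger genes named Zfp were a large and quiet family. Of 340, 276 lay within 2-fold, 43 (12.6%) were higher and 21 (6.18%) lower, both below the background of 16.2%. Zfp385a had 5139.8 (GFP), 601 (MHC) and 822 (NEG), 8.56-fold (7.86 to 9.33) higher in GFP. Zfp42, also called Rex1 and a mark of embryonic stem cells, had 7.31 (GFP), 709 (MHC) and 11.3 (NEG) and was 97-fold (48.9 to 225) lower. Of 12 pluripotency markers, Zfp42 included, 4 reached the minimum, 1 higher and 1 lower. Their summed values were 16423 (GFP), 7523 (MHC) and 9195 (NEG), most of it from Klf4, with Tdgf1 at 0 in GFP and Fgf4 at 0 in MHC. Pou5f1, below the minimum, was at 7.31 in GFP and 8.10 in MHC.

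**Figure D5:**
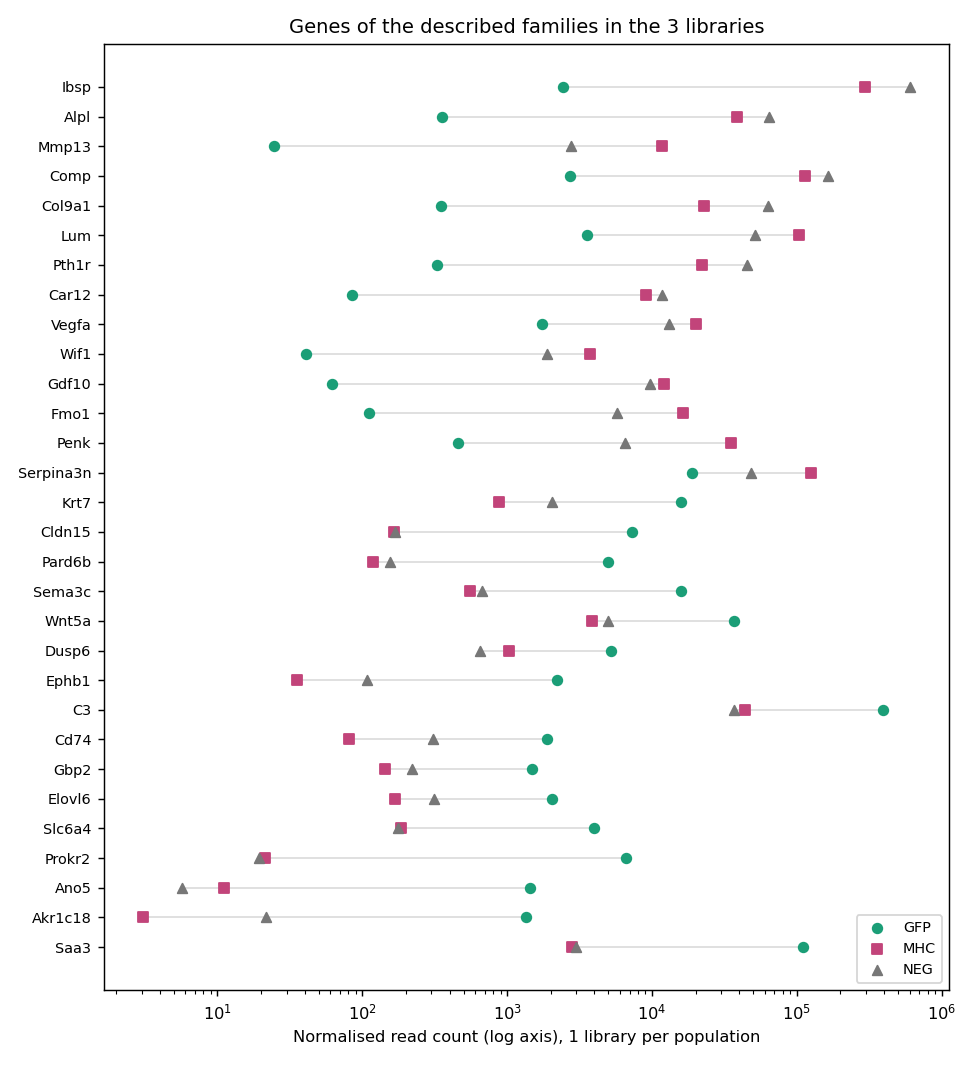
Normalised read counts (log axis) of 30 genes of the described families in GFP (circles), MHC (squares) and NEG (triangles), 1 library per population. From Ibsp to Serpina3n GFP is the lowest library, from Krt7 to Saa3 the highest, and NEG lies nearer to MHC than to GFP on this axis for each gene but Serpina3n.

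Shared cell machinery differed little. Of 76 cytosolic ribosomal protein genes 1 was lower and 0 higher, although the median was −0.57. Mitochondrial ribosomal genes had 1 lower and 0 higher of 76, and proteasome genes 2 higher and 0 lower of 46. Intraflagellar transport genes had 3 of 37 higher and 0 lower, with a median of 0.57. Respiratory chain subunits had 9 of 95 lower and 0 higher. Among the lower ones Cox4i2, a hypoxia-responsive isoform, had 35.6 (GFP), 2739.9 (MHC) and 2055 (NEG), and Ndufa4l2, another, 348 (GFP), 10778 (MHC) and 17103 (NEG). They were 76.9-fold (56.1 to 108) and 30.9-fold (27.9 to 34.4) lower. DNA replication genes had 12 of 58 higher and 1 lower, and mitosis genes 10 of 52 higher and 1 lower, 20.7% and 19.2% higher against 16.2% over all genes. E2f8, a factor of S phase, had 394 (GFP), 59.8 (MHC) and 24.9 (NEG), and Aurkb, a mitotic kinase gene, 122 (GFP), 44.6 (MHC) and 20.3 (NEG). The E2F letters TTTCCCGC were in 16.7% of 54 replication gene windows, in 1 of the 12 windows of the higher members (8.33%) and in 1.78% of all compared windows.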

How the data were processed

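RNA-seq of 3 sorted populations, 1 library each, was analysed. Per the labels' protocols, RNA of sorted cells went into TruSeq libraries read as single reads of 50 bases. Build mm10 and the tools STAR 2.3.0e, DESeq2 1.2.10, FastQC 0.11.2 and bedtools 2.17.0 are named, without their roles, per the submitters' processing notes. For each gene the authors deposited a signal value in every library, which equals whole reads divided by a factor of that library. Values were whole multiples of the value of 1 read (0.914 in GFP, 1.01 in MHC, 1.13 in NEG) for 100% of genes within a tolerance of 0.01. A count model on these reads would need replicates and none was run.

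Of 1225 gene pairs in which a gene of 300 or more reads lies inside another, the outer gene had at least as many reads in 99.8%, so reads were taken as counted over whole gene spans. The table does not separate overlapping genes. Of the compared genes, 3926 (25.4%) overlap a gene whose reads amount to 25% or more of their own. They are called uncertain where named. Reads common to both genes were not counted, so sharing is possible but was not measured. Genes with or without shared reads are named by this rule. Near-identical paralogues may also share reads.

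A gene counted as higher or lower at 2-fold on log2(value + 1) where the larger value reached 20. Intervals of a ratio are exact 95% Clopper-Pearson intervals of recovered reads. They cover counting error only, because each population has 1 library. Reads were not tied to single molecules by identifiers, so molecules read more than once would make these intervals too narrow. A value of 3 reads is 2.74 in GFP and 3.04 in MHC. The members, 63 lists and marker lists were chosen with earlier results of these data known. One of the lists and some genes are not reported here. Named genes are, per list, up to 4 at each end with a value of 100 or more and the 2 most abundant, plus the 15 highest and lowest of all and the markers. Ifit3 comes from the rule for printed promoters, and Bmp2, Col6a1, Col6a3, Col6a5, Fmo5, Grem1, Ltbp2, Runx3, Sqle, Vegfa and members of the Ces2, Myh and Saa clusters were named after their values were seen. On simulated reads for 22740 genes, 100% of 100 genes changed 4-fold and 100% of 100 changed 3-fold were recovered, and 0.166% of unchanged genes were called. The simulation held counting error alone, and its changed genes were drawn from those with a mean value of 100 or more. It had no variation between cultures, sorts or library preparations, so 0.166% is not the rate of false calls in these data. Python 3.11.15, numpy 2.4.6, pandas 2.3.3 and scipy 1.17.1 were used.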

Additional observations from a re-analysis of the deposited data

How the results depend on the processing

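Alternatives were other pseudocounts (10 and 0.5), minimum values (100 and 5), scalings (total reads, TMM, the median ratio set to 0) and leaving out genes with shared reads. The 5024 differing genes numbered between 3893 and 6119 under these, and 3897 when the counting interval had to lie wholly beyond 2-fold. At a 4-fold threshold there were 2214, 968 higher and 1246 lower, which follows from the threshold. Scaling by total reads shifted every log2 ratio by 0.17 towards GFP (TMM by 0.01 and the median by −0.06), and 3090 genes were then higher and 2183 lower. All 14 lists with a median of at least 1 in size kept its sign under the 8 alternatives. Pseudocounts cannot change a gene's sign, and the scalings shifted log2 ratios by 0.17 at most. Those alternatives therefore say little about such medians. The leucine-rich proteoglycan median ranged from −2.67 to −1.20 and that of serpins from −1.42 to −0.77. That of lipid mediator genes ranged from −1.27 to −0.73. Of the 49 other lists 18 changed sign under at least 1 alternative, among them Hox genes (−0.59 to 3.11), ephrins (−0.04 to 0.80) and the Slit list (−0.98 to 0.31), while homeobox genes ranged from −0.93 to −0.13. None of the 521 genes of the naming rule reversed, but these alternatives could not reverse a gene that differed at least 2-fold. The scalings shifted log2 ratios by 0.17 at most, and a pseudocount cannot change a sign. The minimum values and the rule on shared reads keep or drop a gene without changing its ratio. No conclusion on the firmness of single genes is drawn from this. Of 4080 combinations of gene and alternative, 373 were labelled as moved from the main result. No paired analysis was possible because each population has 1 library, and no replicate could be left out. With 1 library per population, depth limits only the counting error.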

Other observations

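Among compared genes without shared reads, 26 runs of at least 5 neighbours in chromosome order were all higher (17 runs) or all lower (9 runs) in GFP than in MHC. These were looked for after the values were seen and chosen for standing on 1 side. Some hold no common family, and family clusters that split were not counted. The longest lies on chromosome 12 (chr12:103853589-104477489, mm10) and holds 14 lower genes, 12 of them of the Serpina protease inhibitor family. Serpina3n, the abundant acute-phase member, had 18889 (GFP), 125836 (MHC) and 48312 (NEG), 6.66-fold (6.56 to 6.76) lower in GFP, and Serpina3a 13.7 (GFP), 336 (MHC) and 131 (NEG). A run of 6 lower genes on chromosome 5 (chr5:104079111-104441050) holds the mineral-binding glycoproteins from Sparcl1 to Spp1, and another of 6 on chromosome 3 the osteocalcin genes Bglap, Bglap2 and Bglap3. Bglap had 89.6 (GFP), 2239 (MHC) and 2475 (NEG). The flavin monooxygenase genes Fmo1, Fmo2 and Fmo4 on chromosome 1 were lower, whereas Fmo5, which lies elsewhere, was 3.67-fold higher.

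Higher runs were of other families. On chromosome 8 (chr8:104734003-105020410) a run of 8 carboxylesterase 2 entries was higher, where Ces2g had 16794 (GFP), 2112 (MHC) and 2493 (NEG) and Ces2e 1979.9 (GFP), 138 (MHC) and 119 (NEG). On chromosome 7 the serum amyloid genes were higher, Saa3 with 110757 (GFP), 2796 (MHC) and 2994 (NEG), 39.6-fold (38.2 to 41.2) higher, and Saa1 with 1627 (GFP), 33.4 (MHC) and 50.8 (NEG). A run of 9 kallikrein genes lies on the same chromosome, most of them close to the minimum value of 20 in GFP and under it in MHC. Guanylate-binding protein genes on chromosome 3, class I genes from H2-D1 to H2-Q10 on chromosome 17 and myosin heavy chain genes from Myh3 to Myh13 on chromosome 11 formed further runs. Myh8, a perinatal skeletal muscle myosin, had 19880.0 (GFP), 1718 (MHC) and 1798 (NEG) and Myh2 3789.7 (GFP), 524 (MHC) and 336 (NEG). Of 12 skeletal muscle markers, Myh3 included, 8 reached the minimum, 1 higher and 4 lower. The 12 had summed values of 5493.5 (GFP), 15207 (MHC) and 5940.8 (NEG), and Des made most of the MHC sum with 9915. Myf5, Myod1 and Pax7 were at 0 in MHC and near 0 in GFP (4.57, 2.74 and 0.914). The part of skeletal muscle cells was not tested. Members of these clusters are close in sequence, and how far they share reads was not tested. Over genes without shared reads, of which 3922 of 11541 differed, the share by chromosome lay between 30.7% and 38.6%, with median log2 ratios from −0.04 to 0.20.

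Genes that are not protein-coding were compared by the same rule. Of 614 lincRNA genes 105 were higher and 137 lower in GFP, and 381 of the 614 may share reads with overlapping genes. Of 736 antisense genes 157 were higher and 153 lower, and 694 of the 736 may share reads. Pseudogenes were higher for 241 and lower for 379 of 2666, with a median of −0.22.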
